A study of Mus musculus with 10 samples.

Results

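The genes described here are 10 interferon-induced GTPases of the mouse, 6 guanylate-binding proteins (Gbp2b, Gbp2, Gbp3, Gbp5, Gbp7 and Gbp9) and 4 immunity-related GTPases (Iigp1, Irgm1, Irgm2 and Igtp). They were found by symbol among the 52636 genes of a bulk RNA sequencing count table, and all 10 were present. The list was drawn up with the genotype difference in these libraries already known, so the differences of the 10 genes are given as a description, with no test. The libraries came from nonclassical monocytes, the patrolling monocytes that crawl along the vessel wall, sorted from mouse bone marrow at a stated purity of 98%. The 5 WT libraries carry the genotype LAIR1+/+ and the 5 LAIRKO libraries LAIR1-/-, which removes an inhibitory receptor that binds collagen. Neither group was treated, RNA came from 5000 to 10000 cells by a low-input protocol, and strain, age, sex and the allele's design are not given in the labels. Whether the libraries of a genotype stem from different animals is not stated, so any p-value here measures the spread between libraries, which may be technical.

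Guanylate-binding proteins (GBPs) are large GTPases that coat the vacuoles of intracellular bacteria and parasites, break them open and expose their contents to inflammasomes. Immunity-related GTPases (IRGs) are smaller relatives. The regulatory Irgm1, Irgm2 and Igtp (also called Irgm3) sit on the cell's own membranes and hold effectors such as Iigp1 inactive there, and the effectors load onto membranes that lack the regulators. Interferon-gamma induces both families through promoter elements called gamma-activated sites (GAS) and through the interferon-stimulated response element (ISRE), which IRF1 and related factors bind. In monocytes and macrophages a basal level is present before infection.

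Both families lie in clusters, and the promoters searched for the members show the letters that interferon factors read. On GRCm38 with GENCODE M21 gene models, 5 members lie side by side on the plus strand of chromosome 3: Gbp5 at chr3:142493978-142522344, Gbp7 at chr3:142530342-142550149, Gbp3 at chr3:142560026-142573209, Gbp2b at chr3:142594847-142619179 and Gbp2 at chr3:142620602-142638008. Gbp9 lies on the minus strand at chr5:105077630-105139539, next to Gbp4 and Gbp8. Irgm1 lies at chr11:48861968-48871683 on the minus strand, and Igtp at chr11:58199556-58207591 and Irgm2 at chr11:58199618-58222782 on the plus strand. RefSeq promoter windows (GRCm38.p6, 250 bases before to 50 after the start site) were matched for 8 of the 10 members, not for Gbp9 and Iigp1. The 170 bases before the start are shown for 6 of them, on the strand of the gene, with GAS letters (TTCNNNGAA) and ISRE core letters (GAAA, any 2 bases, GAAA) in capitals, both searched on either strand. Gbp2b and Gbp2 are shown because they are neighbours of very unequal level, Gbp5 because it was the only member with a higher mean in LAIRKO, and the 3 regulatory IRGs because their elements are arranged differently.
Gbp2b (chr3:142594677-142594846, plus strand): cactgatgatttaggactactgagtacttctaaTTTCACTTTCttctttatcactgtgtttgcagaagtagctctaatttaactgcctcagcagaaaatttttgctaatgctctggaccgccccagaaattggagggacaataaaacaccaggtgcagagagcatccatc
Gbp2 (chr3:142620493-142620662, plus strand): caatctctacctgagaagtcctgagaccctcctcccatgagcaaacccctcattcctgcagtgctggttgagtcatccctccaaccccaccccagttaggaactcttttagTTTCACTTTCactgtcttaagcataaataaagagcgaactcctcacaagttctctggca
Gbp5 (chr3:142496764-142496933, plus strand): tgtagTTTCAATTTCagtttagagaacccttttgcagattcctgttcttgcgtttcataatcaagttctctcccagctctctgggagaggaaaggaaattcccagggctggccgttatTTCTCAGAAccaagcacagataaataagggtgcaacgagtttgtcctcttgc
Irgm1 (chr11:48871421-48871590, minus strand): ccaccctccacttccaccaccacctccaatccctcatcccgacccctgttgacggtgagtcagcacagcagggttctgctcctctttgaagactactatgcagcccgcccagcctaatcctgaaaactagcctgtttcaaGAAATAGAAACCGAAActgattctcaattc
Irgm2 (chr11:58214807-58214976, plus strand): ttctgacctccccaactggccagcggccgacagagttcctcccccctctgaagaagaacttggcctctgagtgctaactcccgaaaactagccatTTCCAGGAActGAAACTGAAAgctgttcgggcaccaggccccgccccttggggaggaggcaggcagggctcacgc
Igtp (chr11:58199386-58199555, plus strand): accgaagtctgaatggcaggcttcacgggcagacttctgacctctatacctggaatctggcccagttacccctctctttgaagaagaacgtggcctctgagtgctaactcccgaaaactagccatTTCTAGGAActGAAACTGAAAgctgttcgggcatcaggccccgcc

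The ISRE core was present in a window of all 8 of the matched members, against 3.99% of the 27025 genes with a window. Gbp3 has 2 windows, of which the second holds no match. Of all 32851 windows, 3.44% held the core. GAS letters were present in 4 of the 8, Gbp5, Gbp7, Irgm2 and Igtp, against 9.55% of the genes and 8.30% of the windows. Each of these 4 held both in its 1 window, as did 0.454% of all windows. Of 8 other GTPase genes with a window, 4 held an ISRE core (3 before the start) and 3 held GAS letters. The windows of 9930111J21Rik2, Gm5431, Irgq and Ifi47 held neither. In Irgm2 and Igtp the GAS letters end 2 bases before the ISRE core. That arrangement, searched on either strand, occurred in 5 of 32851 windows, those of Igtp, Irgm2, Tgtp1, Tgtp2 and Gm12185. All 5 lie on chromosome 11, and Tgtp1 and Tgtp2 are IRG genes too. The 250 bases before the start of Igtp and of Irgm2 share a run of 55 identical bases, while the next longest run among the 8 members was 13 bases, between Gbp3 and Gbp7. In Irgm1 a pair of ISRE cores overlap, 30 and 24 bases before the start, and in Gbp3 another pair starts 45 and 39 bases before it. With longer ISRE letters, in which a further base and a C follow the core, only Irgm1, Irgm2 and Igtp of the 8 members held a match. A match is a run of letters, and binding was not measured in these samples.

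**Figure D1:**
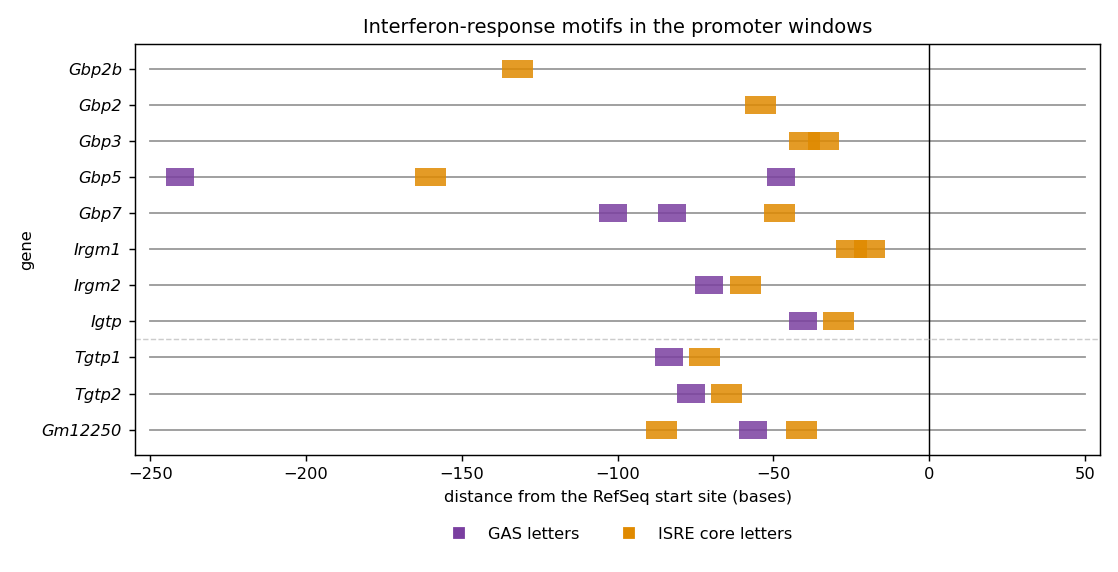
Position of GAS letters (purple) and ISRE core letters (orange) in the promoter windows, by distance in bases from the RefSeq start site (black line); grey lines span each window. The 8 members with a window are above the dashed line, and Tgtp1, Tgtp2 and Gm12250, other IRG genes with matches in this stretch, are below it. Every member shown holds an ISRE core before its start, and in Irgm2, Igtp, Tgtp1 and Tgtp2 the GAS letters sit directly upstream of it.

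The count tables held 12106209 to 15356924 reads per library. Lair1, the deleted gene, was read at 399.7, 386, 373, 385 and 328 counts per 1000000 reads (CPM) in the WT libraries and at 0.192, 0.673, 0.265, 0 and 0 CPM in the LAIRKO libraries (two-sided exact permutation p = 0.00794, the smallest that 5 against 5 allows). Of 13469 genes tested, 914 passed an adjusted p of 0.05 (edgeR quasi-likelihood, Benjamini-Hochberg), 688 higher (5.11%) and 226 lower (1.68%) in LAIRKO. Of 12 nonclassical monocyte markers 0 passed by edgeR, DESeq2 or limma voom, and 3 had an unadjusted p under 0.05, as did 21.8% of all genes. All 12 lay below 0 (11 with library totals), with a median log2 fold change of -0.23. Markers of other cells differed between the genotypes: 8 of 8 myeloid progenitor markers were higher in LAIRKO, with summed CPM of 514 to 1374 in WT and 3168 to 6746 in LAIRKO. Resident macrophage markers were lower (8 of 11 tested, summed CPM 1755 to 2261 against 955 to 1233), and of 9 dendritic cell markers 3 were lower and 1 higher (335 to 506 against 263 to 393). None of the markers of these 3 lists was at 0 in all libraries. Macrophages and dendritic cells also express GBPs and IRGs. The part of these cells in the values below was not tested, and in bulk RNA fewer cells of a type cannot be told apart from less RNA per cell.

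All 10 GTPases had at least 1 read in every library and all 10 were kept by the filter on low counts. Gbp2b had 1 read in LAIRKO replicate 3, below the floor of 3 counts. The difference between genotypes was small for most of them. The fold change was below 0 for 9 of the 10, with Gbp5 the exception (8 with library totals, which moved the median of all genes to 0.13), and the median log2 fold change (LAIRKO minus WT) was -0.23, beside -0.0018 over all genes tested. Below 0 lay 50.3% of all genes tested. For 8 of the 10 the 95% interval of the fold change stayed within 2-fold in either direction. It excluded 0 for Gbp2b, Gbp2, Iigp1 and Irgm1, beside 21.8% of all genes with an unadjusted p under 0.05, and nothing is read from that on genes chosen on this contrast. In none of the 10 were the groups separate. They were separate for 7.66% of all genes tested, and with 10 genes nothing is read from that. Gbp2b alone passed the threshold, which 6.79% of all genes passed in either direction and 1.68% in the lower direction. Because the genes were chosen on this contrast, nothing is read from that count. With DESeq2 the count was 2 (11.2% of all genes passed) and with limma voom 0 (6.64%). It also varied with the libraries used: the count was 0 without WT replicate 1, 2 or 4 and without LAIRKO replicate 1, 2, 4 or 5, and 2 without LAIRKO replicate 3 (Gbp2b and Gbp2). Without WT replicate 5 it was 1, with Irgm1 in place of Gbp2b.

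**Figure D2:**
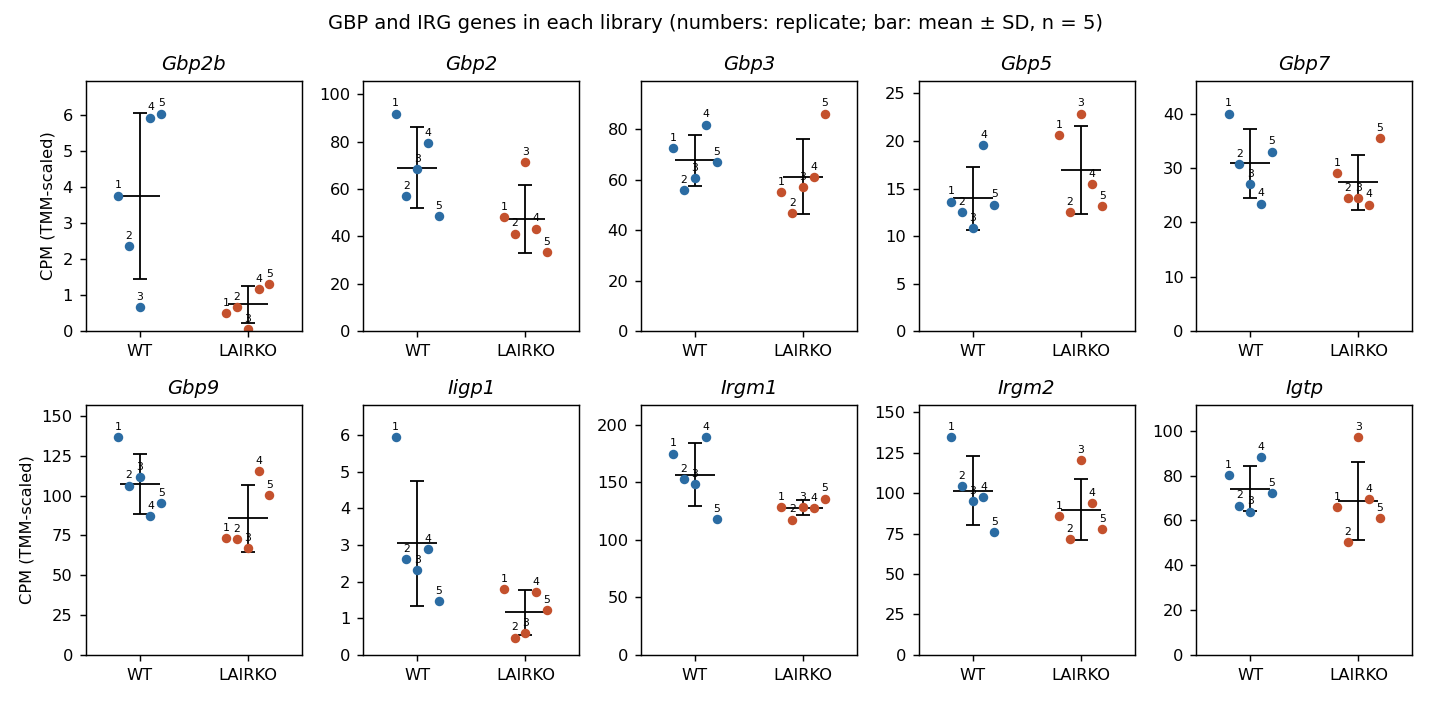
CPM of each of the 10 genes (vertical axes, each starting at 0) in the 5 WT (blue) and 5 LAIRKO (orange) libraries; numbers are replicates, the wide bar is the mean and the whiskers 1 SD. The groups overlap in all 10 panels, and Irgm1 has a narrow LAIRKO group (CV 5.09%) beside a wide WT group (17.4%).

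Gbp2b, Gbp2 and Gbp5 are the mouse GBPs that carry a lipid anchor and attach to membranes. Gbp2b, a gene long listed as Gbp1, was the least abundant GBP member per length, with CPM of 3.76, 2.36, 0.669, 5.93 and 6.04 in WT replicates 1 to 5 and 0.511, 0.673, 0.0663, 1.17 and 1.30 in LAIRKO. WT replicate 3 lay among the LAIRKO libraries, and the other 4 WT libraries lay above all 5 of them. These values rest on 246 reads over the WT libraries and 52 over the LAIRKO libraries, with 1 read in LAIRKO replicate 3. The means were 3.75 ± 2.32 and 0.745 ± 0.503 CPM (SD, n = 5 each), and the log2 fold change was -2.34 ± 0.64 (SE), with a 95% interval of -3.71 to -0.96. In both genotypes replicates 4 and 5 had the highest values and replicate 3 the lowest, although equal numbers do not mark related libraries.

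Gbp2, which gathers on the vacuole of Toxoplasma and helps to disrupt it, lies immediately downstream of Gbp2b and was far more abundant per length. Its CPM were 91.8, 57.1, 68.3, 79.5 and 48.5 in WT and 48.2, 41.2, 71.3, 43.3 and 33.3 in LAIRKO. LAIRKO replicate 3 lay inside the WT range, and the other 4 LAIRKO libraries were below every WT library. The log2 fold change was -0.54 ± 0.21 (95% interval -0.99 to -0.09), and without LAIRKO replicate 3 it was -0.73.

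Gbp5, which promotes inflammasome assembly, was the only member with a higher LAIRKO mean. Its CPM were 13.6, 12.5, 10.9, 19.6 and 13.3 in WT and 20.6, 12.5, 22.9, 15.5 and 13.1 in LAIRKO. LAIRKO replicates 1 and 3 lay above every WT library and the other 3 inside the WT range. The log2 fold change was 0.27 ± 0.21, with an interval of -0.18 to 0.73 that spans 0.

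Gbp3 and Gbp7, neighbours in the chromosome 3 cluster, and Gbp9, from the chromosome 5 cluster, had overlapping groups. Gbp3 had CPM of 72.5, 55.9, 60.7, 81.7 and 67 in WT and 55, 46.9, 57, 60.9 and 86.1 in LAIRKO, where replicate 5 was the highest of all 10 libraries. Gbp7, which has been tied to the oxidative defence of vacuoles, had CPM of 39.98, 30.7, 27, 23.5 and 33 in WT and 29, 24.5, 24.5, 23.3 and 35.5 in LAIRKO. Their log2 fold changes were -0.14 ± 0.16 and -0.17 ± 0.17. Gbp9 ranged from 87.3 to 137 CPM in WT. In LAIRKO, replicates 1 to 3 were below that range, at 73.4, 72.6 and 67.2 CPM, and replicates 4 and 5 were within it, at 115 and 101 CPM. Its log2 fold change was -0.32 ± 0.17 (95% interval -0.68 to 0.03). Without LAIRKO replicates 4 and 5, a choice made after seeing these values, it was -0.60.

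Of the IRGs, Iigp1 (also called Irga6), the only effector among the 4, had the lowest level. The gene lies at chr18:60376027-60392634 on the plus strand. Its CPM were 5.94, 2.61, 2.31, 2.90 and 1.47 in WT and 1.79, 0.471, 0.597, 1.71 and 1.23 in LAIRKO, from 194 and 83 reads in all. WT replicate 1 was highest by a wide margin, WT replicate 5 lay inside the LAIRKO range, and LAIRKO replicates 2 and 3 were the lowest. The log2 fold change was -1.39 ± 0.46 (95% interval -2.39 to -0.39), and without WT replicate 1 it was -1.0.

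The 3 regulatory IRGs were abundant in both genotypes. Irgm1, whose loss in mice impairs host defence and haematopoiesis, had CPM of 175, 153, 148, 189 and 118 in WT and 129, 118, 129, 128 and 136 in LAIRKO. The LAIRKO libraries were close together (CV 5.09%) and the WT libraries more spread (17.4%), with WT replicate 5 and LAIRKO replicate 2 the lowest of all 10. Its log2 fold change was -0.29 ± 0.12 (95% interval -0.55 to -0.04). Irgm2 had CPM of 134, 105, 95, 97.4 and 75.8 in WT and 85.8, 71.7, 120, 93.7 and 77.8 in LAIRKO, a log2 fold change of -0.17 ± 0.16. Igtp had CPM of 80.1, 66.6, 64, 88.4 and 72.1 in WT and 66.1, 50.4, 97.1, 69.6 and 60.9 in LAIRKO, and its log2 fold change of -0.11 ± 0.16 was the smallest in size of the 10. For both genes LAIRKO replicate 3 was the highest LAIRKO library and LAIRKO replicate 2 the lowest of all 10. With library totals in place of TMM scaling, Igtp lay above 0 (0.01).

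**Figure D3:**
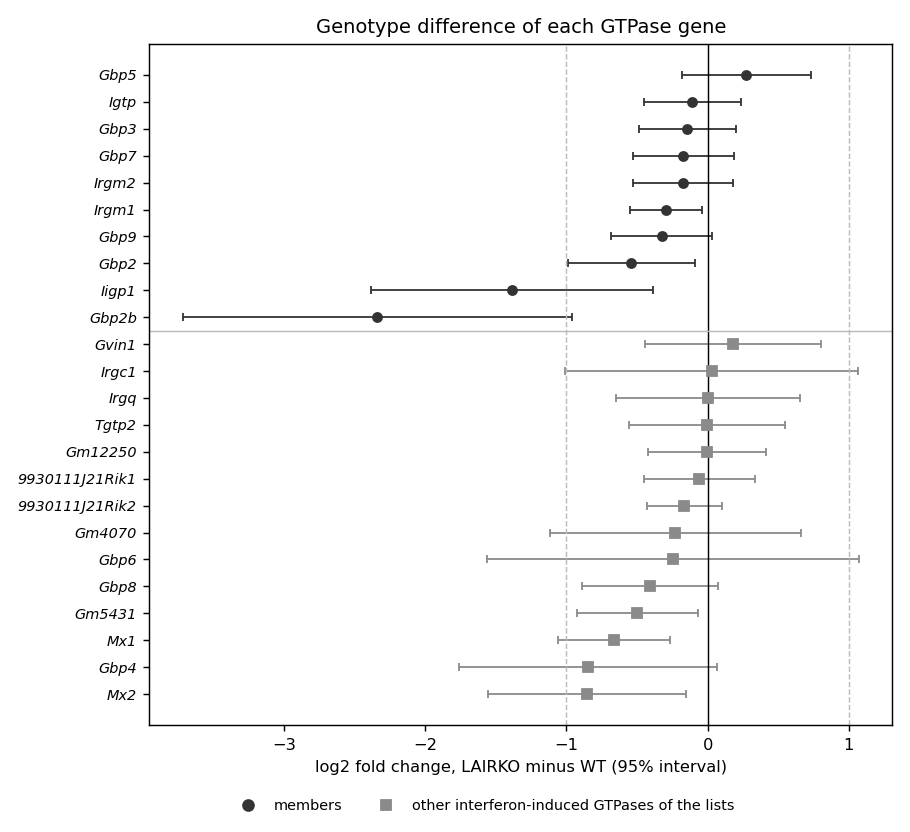
Log2 fold change, LAIRKO minus WT, with its 95% interval, for the 10 members (black circles) and 14 other genes of the GBP, IRG and large GTPase families (grey squares). The 14 are those of the lists that the filter kept, and Ifi47, which is not on the lists, is not shown. Dashed lines mark a 2-fold difference. Gbp2b and Iigp1 lie at -2.34 and -1.39 with wide intervals, and the other 8 members lie between -0.54 and 0.27.

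Per kilobase of exon, the WT level of the members fell into a high and a low group. Igtp was read at 36.7 ± 4.97 CPM per kb, Irgm2 at 27.5 ± 5.77, Gbp2 at 27.4 ± 6.86, Irgm1 at 26.9 ± 4.68, Gbp9 at 20.8 ± 3.65 and Gbp3 at 20.7 ± 3.10 (SD, n = 5). Each of the first 5 overlapped the next in the order. Gbp7 followed at 5.49 ± 1.12 CPM per kb, apart from Gbp3 above and from Gbp5 below, which was read at 2.11 ± 0.499. Gbp2b (1.33 ± 0.820) and Iigp1 (0.523 ± 0.293) closed the order, and their ranges overlapped. The regulatory IRGs were all in the high group in WT, and Iigp1, the only effector among the members, was the lowest of the low group. Genes outside the members did not split in this way. In WT, Ifi47, another interferon-induced GTPase gene, was read at 34.3 ± 7.74 CPM per kb. The IRG genes Gm12250 and Tgtp2 were read at 20.9 ± 3.26 and 5.53 ± 1.59. The 2 members with the largest differences between genotypes were the 2 with the lowest levels, where counting error is largest.

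Near-identical copies and overlapping gene models bear on some of these levels. The share of 50-base stretches of a member's transcripts that also occur in another gene's transcripts ran from 0.379% (Irgm1) to 12.7% (Gbp7). Gbp7 shared most of these with Gm43802, a gene with 0 reads here whose annotation overlaps Gbp7 by 637 exon bases on the same strand. Gbp9 overlaps Gbp4 and Gbp8 by 60 exon bases each. How reads in such overlaps were counted is not known. Igtp shared 11.8% of its stretches with Irgm2, whose annotation overlaps Igtp by 162 exon bases on the same strand. Gbp2 and Gbp2b shared about 2% (2.03% and 1.84%), so most of their sequence tells them apart.

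Within a genotype the members moved together only in part. On the log2 scale WT replicate 1 lay above the genotype mean in 9 of the 10 members, WT replicate 4 in 7 and LAIRKO replicate 2 in 1. LAIRKO replicates 1 and 3 lay above it in 5 each. WT replicate 1 was highest of its group in 5 members (Gbp2, Gbp7, Gbp9, Iigp1 and Irgm2) and WT replicate 4 in another 4 (Gbp3, Gbp5, Irgm1 and Igtp). LAIRKO replicate 2 was lowest of its group in 6 members. LAIRKO replicate 3 was highest in 4 (Gbp2, Gbp5, Irgm2 and Igtp) and lowest in 2 others (Gbp2b and Gbp9). With the genotype means removed, 33 of the 45 pairs of members had a positive Pearson correlation over the 10 libraries, with a median of 0.26. The highest were Gbp5 with Igtp (0.85), Gbp2 with Irgm2 (0.84), Gbp2 with Igtp (0.72) and Irgm2 with Igtp (0.69), and the lowest were Gbp5 with Gbp9 (-0.51) and Gbp2b with Gbp2 (-0.49). These describe 10 libraries that share their scaling, and no test was made of them. Irf1, which encodes a factor that binds ISREs, was also highest in LAIRKO replicate 3, at 465 CPM against 219 to 314 CPM in the other LAIRKO libraries.

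**Figure D4:**
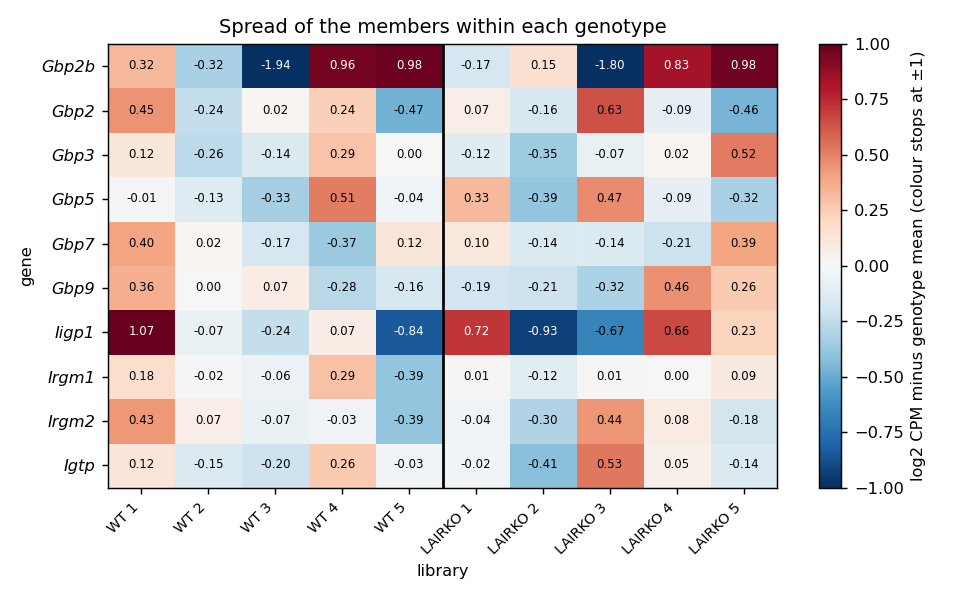
Log2 CPM minus the mean of the genotype for each member (rows) in each library (columns); red is above and blue below the genotype mean, and the colour stops at 1 in either direction. In LAIRKO 3, Gbp2, Gbp5, Irgm2 and Igtp are above the mean (0.44 to 0.63) and Gbp2b (-1.80), Iigp1 (-0.67) and Gbp9 (-0.32) are below it.

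The mean of the members, which the low and variable Gbp2b and Iigp1 weigh on most, was followed most closely, leaving out genes with provisional names (of which 5730405O15Rik, at 0.94, and 1700113A16Rik, at 0.92, ranked above Gramd3), by Ctsf, a cathepsin (r = 0.95 over the 10 libraries, genotype means removed), Lsm12 (0.95), Gramd3 (0.91), Il1rn, the interleukin-1 receptor antagonist (0.91), and Polr3e, an RNA polymerase III subunit (0.91). Over all genes the median r was -0.01 and the 99th percentile 0.76. Irf7 (0.78) and Stat2 (0.75) lay near that percentile, whereas Irf1 had -0.15. None of these is a test.

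Of 16 other listed GBP and IRG genes, 10 were kept by the filter, 0 passed the threshold by edgeR, DESeq2 or limma voom (1 with an unadjusted edgeR p under 0.05), and 8 had a lower LAIRKO mean (5 with library totals), with a median log2 fold change of -0.11. The smallest adjusted p was 0.164 (edgeR), for Gm5431, an IRG gene with a log2 fold change of -0.50 ± 0.20. Gbp4 had a log2 fold change of -0.85 ± 0.42 (adjusted p = 0.267), Gbp8 -0.41 ± 0.22 (0.316) and Gbp6 -0.25 ± 0.61 (0.864). The IRG genes 9930111J21Rik1 and 9930111J21Rik2 had -0.06 ± 0.18 and -0.16 ± 0.12. Tgtp2 (-0.0029), Gm12250 (-0.0045), Irgq (0.0049) and Irgc1 (0.031) lay nearest to 0 on the log2 scale. Tgtp2, like the member Igtp, was highest of all 10 libraries in LAIRKO replicate 3 (26.1 CPM). Gbp6, Tgtp2, 9930111J21Rik1 and 9930111J21Rik2 share 70.7%, 86.6%, 83.2% and 59.8% of their stretches with other genes, so their reads may be split among copies. Gm4951, too low for the filter, shares 3.35% of its stretches with Iigp1. It was read at 1.92, 1.68, 2.08, 1.72 and 0.387 CPM in WT and at 0.0639, 0.605, 0.133, 0.467 and 0.217 CPM in LAIRKO. With no filter applied it had a log2 fold change of -2.37 (edgeR adjusted p = 0.0425, a threshold that 3.24% of all genes then passed), and it was singled out after its values were seen. The filter kept it in some fits that left out 1 library, and it was the 1 gene of the list past the threshold without WT replicate 5 (edgeR adjusted p = 0.0151) and without LAIRKO replicate 2 (0.0282). Ifi47, an interferon-induced GTPase gene not on the lists, was kept by the filter. It was at 84.9 ± 19.1 CPM in WT and 74.6 ± 5.49 CPM in LAIRKO (log2 fold change -0.19 ± 0.14, edgeR adjusted p = 0.489).

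Among the large GTPases, Mx1, an antiviral protein that blocks viral ribonucleoproteins, was lower in LAIRKO, at 20.0 ± 3.73 against 31.6 ± 7.20 CPM (log2 fold change -0.66 ± 0.18, edgeR adjusted p = 0.0469). That call was not kept without WT replicate 1, 2, 4 or 5 or without LAIRKO replicate 1, 2, 3 or 5 (adjusted p from 0.0704 to 0.108). Its relative Mx2 had -0.85 ± 0.33 (0.145), and the very large GTPases Gvin1 and Gm4070, which share nearly all of their sequence, had 0.18 ± 0.29 and -0.23 ± 0.41.

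Of 10 listed interferon and inducing cytokine ligands, 5 had no reads and 3 were tested. Ifng, the main inducer of the GBPs and IRGs, had 0 reads in all 10 libraries, which allows up to 0.195 to 0.248 CPM in a library by counting error alone. Ifna2, Ifna4, Ifne and Il12b were also at 0. The 1 listed ligand past the threshold was Il12a, a subunit of interleukin-12 and of interleukin-35. Its WT mean of 5.74 ± 4.56 CPM rose to 21.6 ± 4.76 CPM in LAIRKO (1.91 ± 0.39 on the log2 scale, edgeR adjusted p = 0.0113), and the groups did not overlap.

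Of 21 receptor and signalling genes, all were tested, 2 were lower (1.68% of all genes were) and 0 higher (5.11%). A lower LAIRKO mean was found in 17 (14 with library totals), with a median log2 fold change of -0.20. Irf7, which amplifies type I interferon, had a WT mean of 274 ± 34.9 CPM and fell to 182 ± 23.2 CPM (-0.59 ± 0.12 on the log2 scale, adjusted p = 0.00853), and Usp18, a feedback inhibitor of the interferon-alpha receptor, from a mean of 43.05 to 21.05 CPM (-1.03 ± 0.21, 0.0105), both by edgeR. In neither did the groups overlap. Without LAIRKO replicate 3 the list's count was 4, and without WT replicates 1 and 4, left out after seeing the data, it was 0. Irf1 and the chains of the interferon-gamma receptor did not pass: Irf1 had -0.20 ± 0.17 (0.537), Ifngr1 -0.27 ± 0.12 (0.222) and Ifngr2 -0.30 ± 0.11 (0.115).

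Several interferon targets outside the GTPase families were lower in LAIRKO. Of 20 tested interferon-gamma targets, all 20 had a fold change below 0 (17 with library totals), with a median log2 fold change of -0.29. Beside 1.68% of all genes, 4 of these targets were lower by the test. They were Fcgr1, the high-affinity IgG receptor (-0.99 ± 0.12, edgeR adjusted p = 6.61e-04), Cd74, the MHC class II invariant chain (-1.24 ± 0.25, 0.0101), Ciita, the class II transactivator (-1.57 ± 0.33, 0.012), and the chemokine Cxcl10 (-1.49 ± 0.42, 0.0499). The Cxcl10 call was not kept without WT replicate 1, 2 or 3 or without any 1 of the LAIRKO libraries (adjusted p from 0.0603 to 0.122). Fcgr1 was at 55.6 to 66.1 CPM in WT and 25.4 to 39.1 CPM in LAIRKO. Cd74 and Ciita were highest in WT replicates 4 and 1, the libraries in which 9 of the 10 GTPases peaked within WT: Ciita was at 82.2 and 57.5 CPM there and 26.3 to 47.5 CPM in the other 3. Within WT, summed markers of macrophages (2159 and 2261 CPM) and dendritic cells (506 and 424 CPM) were also highest in replicates 4 and 1. Those of nonclassical monocytes were highest in replicate 3 (20630 CPM) and those of myeloid progenitors in replicate 2 (1374 CPM). In the same comparison 8 of the 11 tested macrophage markers were lower, and of 9 dendritic cell markers 3 were lower and 1 higher. The part of these cells in the differences of the interferon targets was not tested.

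Of 23 type I interferon stimulated genes, all 23 were tested and had a lower LAIRKO mean, with a median log2 fold change of -0.53. By edgeR 8 passed, beside 1.68% of all genes in the lower direction. The count was 14 by DESeq2, by which 11.2% of all genes passed in either direction, and 5 with library totals. The 4 with the smallest p were Bst2, which tethers budding virus (-0.61 ± 0.09, edgeR adjusted p = 0.00201), Ifit1, which binds viral RNA (-1.0 ± 0.18, 0.00491), Isg15, a ubiquitin-like modifier (-1.20 ± 0.26, 0.0155), and Trim30a (-0.42 ± 0.09, 0.0186). The Trim30a call was not kept without WT replicate 1 (adjusted p = 0.0513), and the count of 8 was 3 without that library and 4 without LAIRKO replicate 2. Bst2 is also on the dendritic cell list. Side by side, the medians were -0.23 for the GTPase members, -0.29 for the other interferon-gamma targets and -0.53 for the type I genes. These lists differ in level and were read on the same libraries, and the difference between them was not tested. They were also chosen with earlier results of these data known, so their counts are no independent test.

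**Figure D5:**
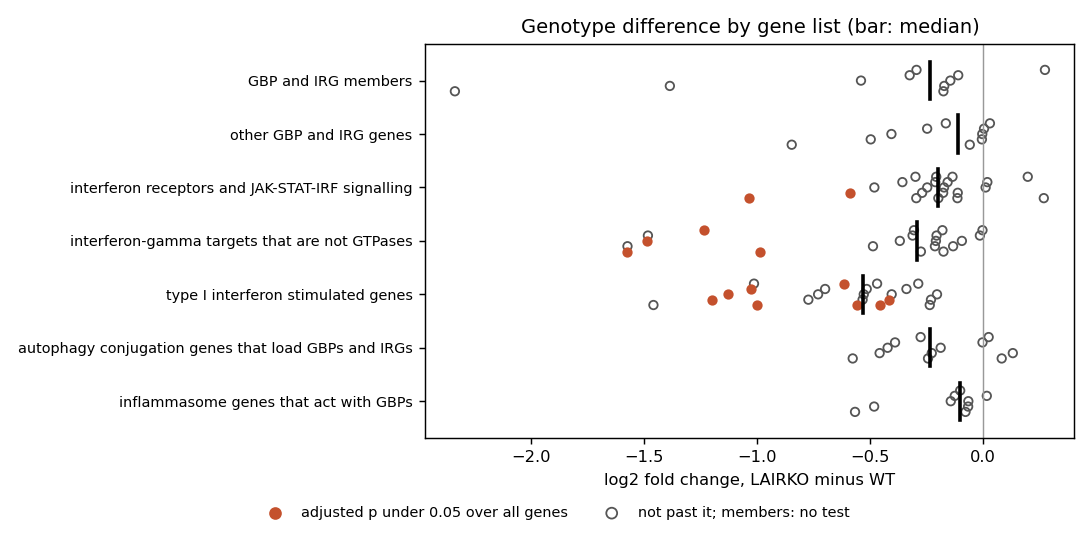
Log2 fold change, LAIRKO minus WT, of each tested gene (circles, filled where the adjusted p over all genes was under 0.05; members carry no test) by list, with the list's median as a bar. Of the 10 members, 8 sit between -0.54 and 0.27 and the list's median is -0.23; all 23 type I interferon stimulated genes sit below 0, around a median of -0.53.

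Genes that act with the GTPases did not pass the threshold. The autophagy list holds 12 genes: conjugation genes, which place GBPs and IRGs on vacuoles, and also Becn1 and Ulk1, which are not conjugation genes. Of the 12, 0 passed by edgeR or limma voom and 2 by DESeq2. An unadjusted edgeR p under 0.05 was found for 4, and the median log2 fold change of the list was -0.23. The smallest p-values belonged to Gabarap (-0.42 ± 0.13, adjusted p = 0.0753 by edgeR) and Map1lc3a (-0.58 ± 0.19, 0.0967), members of the ubiquitin-like family that is attached to membranes. Of 9 inflammasome genes 0 passed by edgeR or limma voom, 1 by DESeq2, and 2 had an unadjusted edgeR p under 0.05, with a median of -0.10, and the smallest p-values belonged to Il1b (-0.57 ± 0.18, 0.0855) and Il18 (-0.48 ± 0.18, 0.127).

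With the members, the other listed GTPase genes and Ifi47 left out, 63 genes start within 250 kb of a member. Gm12185, whose annotation overlaps Tgtp1 by 223 exon bases, stayed among them. Of the 63 genes, 24 were tested, 2 passed (6.79% of all genes did) and 15 had a lower LAIRKO mean. Their median log2 fold change was -0.05. Kyat3, a kynurenine aminotransferase gene 80449 bases from Gbp2 by start site, was higher in LAIRKO, at 12.2 ± 2.31 against 3.78 ± 1.76 CPM (1.68 ± 0.27, edgeR adjusted p = 0.00298). Abcg3, a transporter gene 142573 bases from Gbp9, was lower, at 87.3 ± 13.9 against 130 ± 16.7 CPM (-0.57 ± 0.13, 0.0157). In both the groups did not overlap. Gbp2 and Gbp2b, in the same region as Kyat3, had differences below 0.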

How the data were processed

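One table of raw read counts, deposited by the authors, was analysed (52636 Ensembl genes by 10 libraries, matched by the identifier in each sample title). The submitters' processing notes name GSNAP and the build GRCm38.p5. Not given in the sources used here were the counting tool, the annotation and the strand setting, so overlapping genes on opposite strands could not be told apart. Gene names and positions came from GENCODE M21, promoters from RefSeq.

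The fit used edgeR 4.0.16 under R 4.3.3 (filterByExpr, minimum count 10 and total 15, TMM, glmQLFit, glmQLFTest, no covariate), tested on simulated data. P-values were adjusted over all 13469 genes kept. CPM (counts per 1000000 reads) use TMM-scaled library sizes. Intervals of the fold changes come from the edgeR fit and include the spread between libraries. Floors (3 counts) cover counting error only. Correlations used log2 CPM with a prior count of 2. DESeq2 1.42.0 and limma 3.58.1 were alternatives, with other scalings, filters and left-out libraries.

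The members and lists were chosen with earlier results of these data known. Named were all members, other GTPases kept, up to 4 called genes per pathway list or else the 2 with the smallest p, neighbours past the threshold, and the 5 named genes most like the members' mean. Of each cell type list the most abundant gene and up to 2 called genes were recomputed under every alternative. Irf1, Ifngr1, Ifngr2, Stat2, Gm4951 and Ifi47 were named in addition. Protein features of the members were not analysed here. 1 gene of the signalling list is not reported here.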

Additional observations from a re-analysis of the deposited data

Results flagged for a closer look

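In the WT libraries Gbp4, a GBP gene next to Gbp9, was at 20.4 CPM in replicate 1, far from the other 4, of which the nearest was at 10.97 CPM and the lowest at 7.36 CPM. The gap to the nearest library was 0.724 of the whole range. Among 50 groups of 5 libraries checked in this way, chance flags about 1 in 20.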

How the results depend on the processing

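The median log2 fold change of the 10 GTPases ran from -0.34 to -0.11 over all alternatives and from -0.32 to -0.17 with 1 library left out. Of the 10, 9 lay below 0 in every alternative except library totals and without WT replicates 1 and 4 (8 each, Igtp above 0). The number past the threshold was 0 with library totals, without WT replicates 1 and 4, and with limma voom. It was 2 with DESeq2 and at an adjusted p under 0.1 (Gbp2b and Iigp1), and 0 to 2 with 1 library left out. Of all genes, 914 passed as reported. The count was 1379 with library totals (1243 higher, 136 lower), 1513 with DESeq2, 1474 at an adjusted p under 0.1, 376 without LAIRKO replicates 4 and 5, and 338 without WT replicates 1 and 4. It was 535 to 1170 with 1 library left out. Library totals moved the median of all genes to 0.13. Of the 101 tested pathway genes, 16 passed, against 28 with DESeq2, 25 at an adjusted p under 0.1, 5 without WT replicates 1 and 4, and 9 to 20 with 1 library left out. Of the neighbours, 2 passed, against 6 with library totals, 1 without WT replicates 1 and 4, and 2 to 3 with 1 library left out. With the longer letters, 3 of 8 promoters held an ISRE core. The causes were not tested. The pairs of libraries left out were chosen after seeing the data. Replicate numbers did not pair the libraries (correlations of same-numbered deviations from -0.08 to 0.05). With replicate as a block 600 genes passed, 10 of the pathway genes and 1 member (Gbp2b). Of 64 named genes 13 had a fold change on the other side of 0 under some alternative, with Igtp the only member among them, and none of these values passed the threshold. Depth limits Gbp2b and Iigp1 most, with 52 and 83 reads over the LAIRKO libraries.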
